A study of Mus musculus with 3 samples.

Results

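The genes of sterol and fatty acid synthesis were compared between 3 mouse cell populations of the C57BL/6 strain on 1 expression array each. They were given as 37 gene symbols of cholesterol synthesis, its control by SREBP, fatty acid synthesis, desaturation, elongation and activation. The probe set of highest mean signal, among those annotated to that symbol alone, stood for a gene. In this way 35 of the 37 were found among 18193 genes, on 82 probe sets, and Acat2 and Acsl1 were not analysed here. The embryonic stem (ES) cells, line B6N-22, grew on mouse embryonic fibroblasts treated with mitomycin C in medium holding 20% fetal bovine serum and leukemia inhibitory factor. The B cells and CD4 T cells were unstimulated splenic cells of mice aged 6 to 8 weeks, purified on B220 or CD4 with magnetic beads to over 98% per the labels and lysed at once. How many mice gave each sample, and whether feeder cells were removed, the sources used here do not say.

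Cells make cholesterol from acetyl-CoA by the mevalonate pathway, which yields isoprenoid units that are joined to squalene, closed to lanosterol and trimmed to cholesterol. When membranes are poor in sterol, Scap carries the SREBP transcription factors to the Golgi, where they are cleaved and then switch on these enzymes. Insig proteins hold Scap back when sterol is plentiful. Fatty acids are built from the same acetyl-CoA by Acaca and Fasn, lengthened by Elovl enzymes, desaturated by Scd and Fads enzymes, and activated by Acsl enzymes. Dividing cells need both products for new membrane, and lymphocytes are known to turn both pathways up when they are activated.

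Each population had 1 array, which leaves no replicate error and allows no test, and each statement below describes these arrays. Signals are linear units as deposited and were compared between arrays for the same probe set. The detection level was the median of all values, a signal of 95. A lower value was raised to that level before the log2 was taken, and a fold resting on it is a lower bound, written "at least". All 35 genes were above that level in ES cells and 34 in each lymphocyte array, with Fads2 below it in both. The SD of the log2 difference of a single probe set was taken from the disagreement of the 2 brightest probe sets of a gene. Only genes with both above the detection level in both arrays entered. It was 0.63 between T and ES cells, 0.61 between B and ES cells and 0.35 between T and B cells. Over the genes of the set alone it was 0.56, 0.71 and 0.56 in the same order. This SD covers probe effects only, not differences between cultures or animals.

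The labels were checked against defining markers. All 6 ES cell markers were above the detection level in the ES array and 0 of 6 in either lymphocyte array. The summed signal of 5 B cell markers was 88711.5 in B cells, 4589 in T cells and 350.5 in ES cells, and that of 6 T cell markers was 53651 in T cells, 908 in B cells and 130.1 in ES cells. Markers of other cells were also present. The 8 fibroblast markers summed to 49625.5 in the ES array, with 8 of 8 above the detection level, against 437.5 in B cells and 371 in T cells with 1 of 8 above it. The 10 macrophage markers summed to 66436 in T cells, 27597 in B cells and 4380 in ES cells. The 5 cycling cell markers found summed to 30121 in ES, 5916 in B and 5184.5 in T cells. The part of these cells in the results below was not tested, and fewer cells of a type cannot be told apart from less RNA per cell.

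Both lymphocyte arrays had lower signals than the ES array for most of the pathway. Of the 35 genes, 7 lay at least 4-fold below ES cells in the T cell array, where 10.2% of all 12325 measured genes were, and 1 was at least 4-fold higher, where 10.8% were. At 2-fold, 18 were lower against 24.7% of all genes, and 1 was higher against 22.7%. In B cells against ES cells, 8 were at least 4-fold lower (10.3% of 12463 genes) and 2 higher (9.85%), and at 2-fold 17 were lower (24.6%) and 3 higher (21.1%). The median log2 difference of the 35 was -1.15 for the T cell array and -0.99 for the B cell array, beside -0.11 and -0.07 over all measured genes. The comparisons share the ES array, so their values are given side by side only. With each array scaled to a common 75th percentile, 12 genes rather than 7 passed 4-fold below ES cells in the T cell array. Of all genes, 1688 of 12543 did so with that scaling. With the second brightest probe set of each gene 4 of 32 did, beside 901 of 10716 of all genes.

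**Figure D1:**
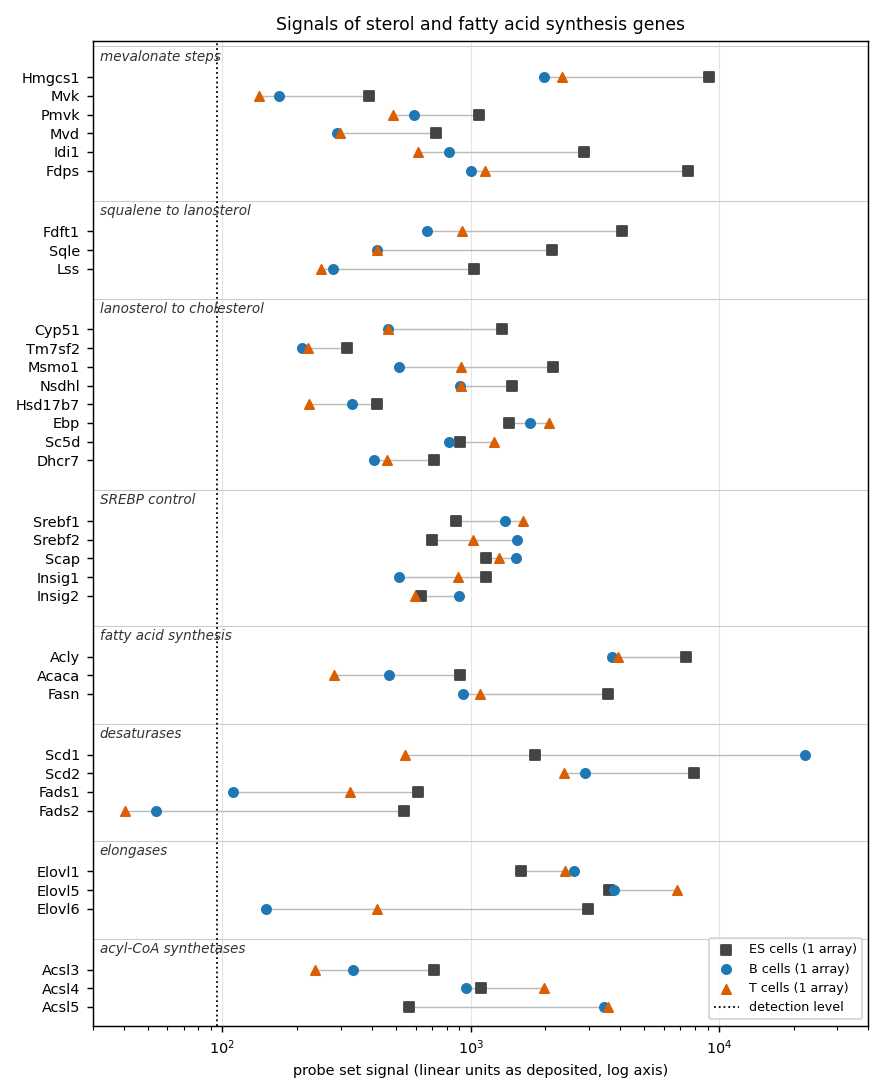
Signals of the 35 genes on a log axis in the ES (square), B (circle) and T cell (triangle) arrays, 1 array each, grouped by pathway step, with the detection level of 95 as a dotted line. The squares lie to the right of the other symbols for the mevalonate and squalene steps, and Scd1 in B cells lies at 22258.

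The promoters of 7 genes are shown because these were the genes at least 4-fold different from ES cells in a lymphocyte array that had a sequence in the promoter table. Each sequence is the 250 bases before the annotated start, 5′ to 3′ in the direction of the gene, from RefSeq on build GRCm38.p6. Capitals mark CCAAT, or ATTGG where it lies on the other strand, which is the letters bound by NF-Y, a partner of SREBP, and CACNCCAC on either strand, a core of the sterol regulatory element.
Hmgcs1 (chr13:119690101-119690350, plus strand): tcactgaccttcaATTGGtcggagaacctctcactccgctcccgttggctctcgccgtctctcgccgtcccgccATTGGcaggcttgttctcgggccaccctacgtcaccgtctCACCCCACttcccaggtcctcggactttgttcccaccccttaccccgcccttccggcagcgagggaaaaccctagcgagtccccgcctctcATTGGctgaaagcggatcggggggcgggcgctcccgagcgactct
Idi1 (chr13:8885356-8885605, plus strand): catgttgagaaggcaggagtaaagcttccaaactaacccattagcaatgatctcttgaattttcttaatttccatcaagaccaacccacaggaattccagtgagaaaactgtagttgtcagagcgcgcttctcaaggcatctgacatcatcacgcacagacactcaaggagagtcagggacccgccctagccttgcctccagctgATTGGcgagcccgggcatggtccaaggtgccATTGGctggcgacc
Lss (chr10:76531355-76531604, plus strand): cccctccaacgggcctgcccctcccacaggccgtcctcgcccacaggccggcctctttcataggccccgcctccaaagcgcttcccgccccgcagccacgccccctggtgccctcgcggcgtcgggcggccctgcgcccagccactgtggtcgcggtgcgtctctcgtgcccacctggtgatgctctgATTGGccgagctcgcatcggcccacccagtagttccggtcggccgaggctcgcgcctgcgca
Msmo1 (chr8:64733579-64733828, minus strand): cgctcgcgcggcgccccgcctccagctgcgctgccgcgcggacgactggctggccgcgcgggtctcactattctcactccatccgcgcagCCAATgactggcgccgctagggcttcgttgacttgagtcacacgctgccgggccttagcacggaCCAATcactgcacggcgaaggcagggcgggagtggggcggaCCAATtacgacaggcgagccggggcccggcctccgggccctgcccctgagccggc
Fads2 (chr19:10101504-10101753, minus strand): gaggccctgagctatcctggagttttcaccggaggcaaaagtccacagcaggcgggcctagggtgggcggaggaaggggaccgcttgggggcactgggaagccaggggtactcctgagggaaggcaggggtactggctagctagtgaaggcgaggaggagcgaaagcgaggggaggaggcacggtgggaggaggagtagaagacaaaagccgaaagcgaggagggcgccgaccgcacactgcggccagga
Elovl6 (chr3:129532136-129532385, plus strand): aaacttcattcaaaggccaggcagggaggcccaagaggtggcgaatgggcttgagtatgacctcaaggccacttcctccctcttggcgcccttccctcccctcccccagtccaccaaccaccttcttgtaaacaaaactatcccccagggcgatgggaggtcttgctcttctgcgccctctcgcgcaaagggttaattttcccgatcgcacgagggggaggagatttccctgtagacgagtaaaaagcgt
Acsl5 (chr19:55253119-55253368, plus strand): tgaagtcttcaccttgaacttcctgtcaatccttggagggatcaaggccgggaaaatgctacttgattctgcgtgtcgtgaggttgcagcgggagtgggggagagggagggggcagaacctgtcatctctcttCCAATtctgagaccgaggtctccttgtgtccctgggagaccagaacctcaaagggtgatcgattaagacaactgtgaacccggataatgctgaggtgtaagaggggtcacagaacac
The other genes past 4-fold, Fdps, Fdft1, Sqle, Fads1 and Scd1, are named only.

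The letters CCAAT were frequent before the sterol genes. Of the 35 genes, 29 had at least 1 window in the table, with 38 windows in all. CCAAT stood in 14 of 17 windows of sterol enzymes (82.4%) and in 24 of 38 windows of all 29 genes (63.2%), beside 34.7% of 18109 windows of genes on the array. By gene, 14 of 14 sterol enzyme genes had it in a window, beside 39.4% of array genes. Windows of a gene with several starts can overlap. In Idi1 the CCAAT matches lay at -45 to -41 and -14 to -10, counted from the base before the start as -1, and in Hmgcs1 a CACNCCAC match lay at -136 to -129 between CCAAT matches. Fads2 and Elovl6, which were lower in both lymphocyte arrays, had no CCAAT or CACNCCAC in the windows shown. Ebp, Srebf1, Srebf2, Elovl1, Elovl5 and Acsl5, higher in both as deposited, had CCAAT in a window. Scap, also higher in both, had none. Whether CCAAT goes with the differences in signal was not tested.

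The sterol regulatory element core was searched only as CACNCCAC, and its share in these windows was near that of all windows. Other forms of the element were not searched. CACNCCAC was found in 3 of 38 windows (7.89%), in Hmgcs1, Insig1 and Acsl4, beside 5.57% of all windows. GGGCGG, the letters bound by Sp1 and not marked above, stood in 27 of 38 windows (71.1%) beside 48.3% of all. A match of letters is a description of the window and not a bound site, and both strands were searched.

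**Figure D2:**
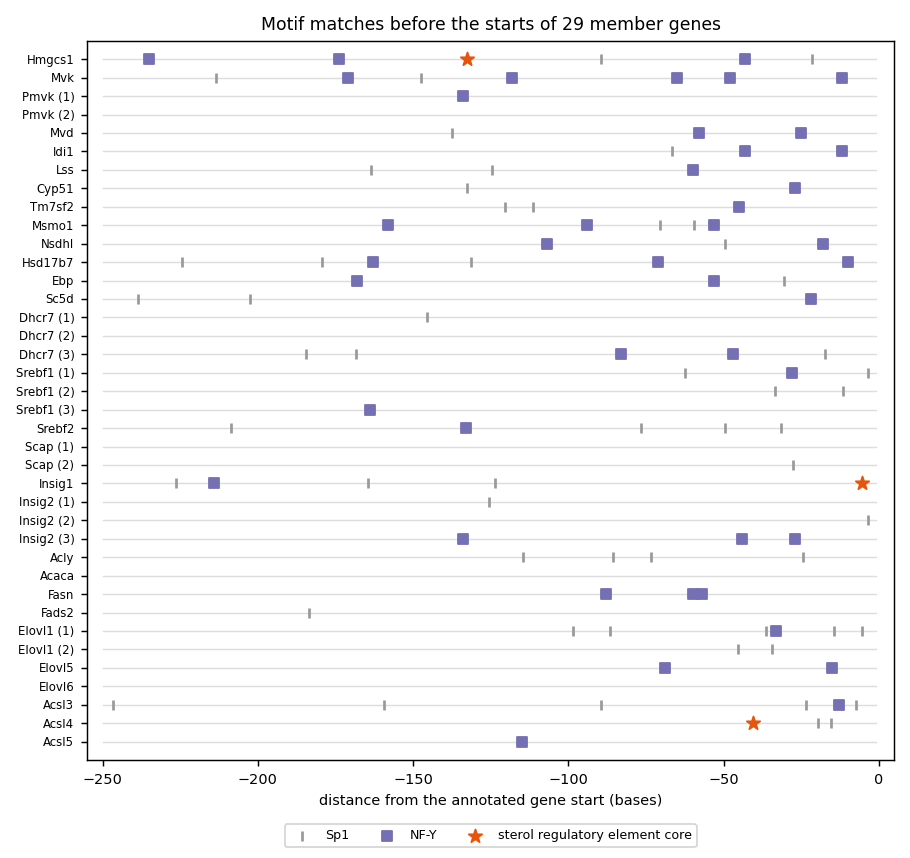
Positions of CCAAT (NF-Y, squares), CACNCCAC (sterol regulatory element core, stars) and GGGCGG (Sp1, ticks) in the 250 bases before the annotated starts of 29 genes, as distance from the start in bases, with several windows of a gene numbered. Squares appear in 14 of the 17 sterol enzyme rows at the top, and stars in 3 rows of the plot.

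In the mevalonate steps every gene measured had its highest signal in ES cells. Hmgcs1, which makes HMG-CoA, had signals of 9082 (ES cells), 1974 (B cells) and 2338.5 (T cells), so that it was 4.60-fold lower in B cells and 3.88-fold lower in T cells. Its 4 brighter probe sets gave log2 differences from -2.23 to -1.97 in B cells. Fdps, which makes farnesyl pyrophosphate, the branch point to sterols and protein prenylation, had 7535, 1005 and 1137 in the same order. It was 7.49-fold lower in B cells and 6.63-fold lower in T cells, the greatest difference among the sterol enzymes in both comparisons.

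Idi1, which interconverts the pathway's isoprene units, had signals of 2855, 822 and 614 in ES, B and T cells. It was 3.48-fold lower in B cells and 4.65-fold in T cells, although by the other Idi1 probe set the T cell log2 difference was -0.99. The remaining kinases and the decarboxylase that turn mevalonate into isoprene units differed less by the probe sets used. Mvk had signals of 390, 169.8 and 140.8, Pmvk 1084, 594 and 488, and Mvd 727, 288 and 297. Their folds against ES cells ran from 1.83 for Pmvk in B cells to 2.77 for Mvk in T cells. In this step 6 of 6 genes in T cells (24.7% of all genes) and 5 of 6 in B cells (24.6%) lay at least 2-fold below ES cells. The median log2 differences were -1.71 and -1.57.

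The 3 enzymes from farnesyl pyrophosphate to lanosterol were lower in both lymphocyte arrays. Fdft1, squalene synthase, had signals of 4079 in ES, 667 in B and 921 in T cells, 6.12-fold and 4.43-fold lower. Sqle, which adds oxygen to squalene and is a control point of the pathway, had 2136, 418.5 and 419, or 5.10-fold and 5.09-fold lower. The B and T cell signals of Sqle differed by 0.0028 on the log2 scale.

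Lss, which closes the rings of lanosterol, had signals of 1034, 279.8 and 251 in ES, B and T cells, 3.69-fold and 4.13-fold lower. Its probe sets did not show the same thing. A second Lss probe set, dimmer at 163, 180 and 190, gave log2 differences of 0.15 in B cells and 0.23 in T cells, so the direction for Lss depends on the probe set.

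From lanosterol to cholesterol the differences from ES cells were smaller, with a median of -0.65 in each lymphocyte array, and 2 of 8 genes at least 2-fold lower in each, which is near the 24.7% and 24.6% of all genes in T and B cells. Those 2 were Cyp51 and Msmo1, which remove the methyl groups of lanosterol. Cyp51 had signals of 1341, 464 and 467, or 2.89-fold and 2.87-fold lower in B and T cells. A dimmer Cyp51 probe set gave log2 differences of -0.90 and -0.47, within 2-fold in both. Msmo1 had 2137, 516 and 914, or 4.14-fold and 2.34-fold lower, so that its T cell signal lay between the others.

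The later enzymes of this stretch lay within 2-fold in both comparisons. The log2 differences of Nsdhl, which follows Msmo1 in removing methyl groups, were -0.69 in B cells and -0.68 in T cells. Dhcr7, which carries out a last reduction to cholesterol, had -0.80 and -0.62, and Tm7sf2, a sterol reductase, had -0.60 and -0.52. Hsd17b7, a ketosteroid reductase that acts after Nsdhl, had -0.34 and -0.91. For Ebp, the sterol isomerase, the signals were 1421 in ES, 1741 in B and 2075 in T cells, the only sterol enzyme with its lowest signal in ES cells, although with scaling to the 75th percentile its B cell difference of 0.29 turned to -0.055. Sc5d, a desaturase of the sterol ring, had 906, 820.4 and 1237. Both genes differed by 1.51-fold or less between any pair of arrays, and Sc5d in B cells gave 0.23 rather than -0.14 by its other probe set.

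**Figure D3:**
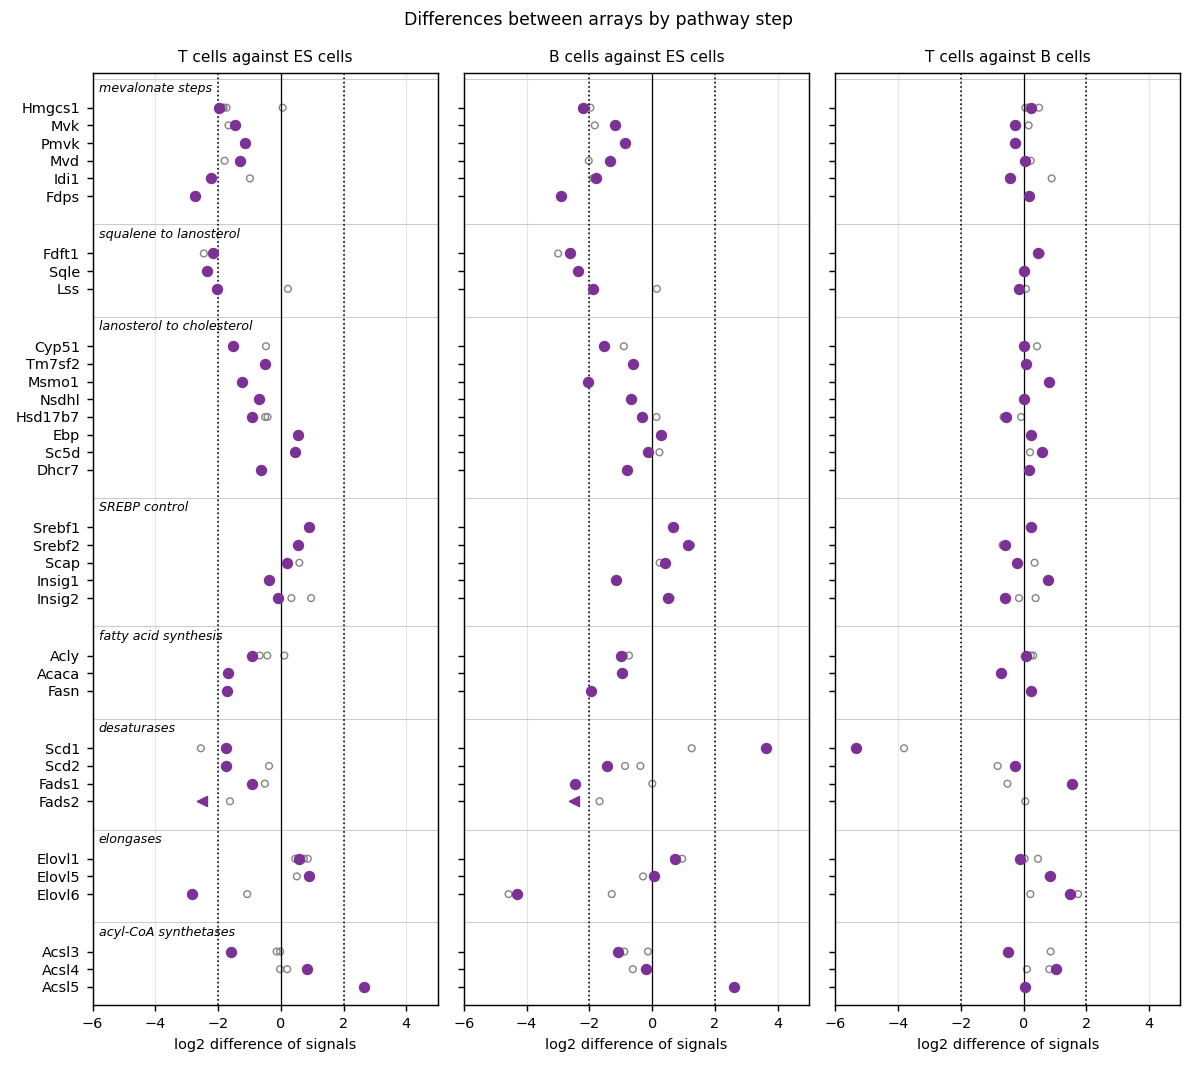
Log2 differences between arrays for the 35 genes by pathway step, with panels for T over ES, B over ES and T over B cells. Filled marks are the probe set used, triangles are bounds, open marks are other probe sets of the gene, and dotted lines mark 4-fold. The filled marks of mevalonate and squalene genes lie left of 0 in the first 2 panels and near 0 in the third, where Scd1 stands at -5.35.

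Of the 5 genes of SREBP control, Srebf1, Srebf2 and Scap were higher in both lymphocyte arrays than in ES cells, and Insig1 was lower in both. Scap in T cells turned to -0.19 with scaling to the 75th percentile. The log2 differences of Scap (0.40 in B cells and 0.19 in T cells) were smaller than the probe set SD. So were those of Srebf2 (0.55) and Insig1 (-0.38) in T cells. Srebf2, the SREBP that mainly serves sterol genes, had signals of 697 in ES, 1531 in B and 1020.1 in T cells, 2.20-fold higher in B cells and within 2-fold in T cells. Srebf1, which mainly serves fatty acid genes, had 870.5, 1381 and 1619, and its isoforms were not separated. Scap, the SREBP escort, had 1148, 1519 and 1306. The median of the 5 genes was 0.51 in B cells and 0.19 in T cells, and the latter turned to -0.19 with scaling to the 75th percentile.

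The Insig genes, whose proteins retain Scap, went separate ways in B cells. Insig1, itself a target of SREBP, had signals of 1157.5 in ES, 517 in B and 889 in T cells, or 2.24-fold lower in B cells and within 2-fold in T cells. Insig2, which is not driven by SREBP in the same manner, had 629.5, 894 and 597. Its 3 probe sets gave log2 differences between 0.48 and 0.58 in B cells but between -0.08 and 0.96 in T cells. None of the 5 control genes reached 4-fold in any comparison, and few of a set this small would at the shares of all genes. Those shares past 4-fold below and above ES cells were 10.2% and 10.8% in T cells, and 10.3% and 9.85% in B cells. Between T and B cells they were 1.85% on the lower side and 2.49% on the higher side. In B cells, 24.6% of all genes lay past 2-fold below ES cells, as Insig1 did, and 21.1% above, as Srebf2 did.

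Genes of fatty acid synthesis were lower in both lymphocyte arrays. Fasn, the synthase that builds palmitate, had signals of 3588 in ES, 932 in B and 1090.5 in T cells, 3.85-fold and 3.29-fold lower. Acaca, which makes malonyl-CoA and commits carbon to fatty acids, had 904, 467 and 281, 1.94-fold and 3.22-fold lower. Acly, which makes cytosolic acetyl-CoA from citrate for both pathways, had 7369, 3709 and 3915.5, 1.99-fold and 1.88-fold lower. The signals of Fasn and Acly in B and T cells differed by 1.17-fold or less, and that of Acaca by 1.66-fold.

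The desaturases held the greatest contrast of the set. Scd1, stearoyl-CoA desaturase, which makes monounsaturated fatty acids, had a signal of 22258 in B cells, 1812 in ES cells and 545 in T cells by its brighter probe set. It was 12.3-fold higher in B cells and 3.33-fold lower in T cells, each relative to ES cells, and its T cell signal was 40.9-fold below its B cell signal. Of 11194 genes measured in T against B cells, 5 including Scd1 were at least as far below B cells. Its second probe set, with signals of 567 in ES, 1358 in B and 96.9 in T cells, gave log2 differences of 1.26 between B and ES cells, -2.55 between T and ES cells and -3.81 between T and B cells. These had the same directions as the brighter probe set, smaller than its 3.62 and -5.35 where B cells enter, and further from 0 than its -1.73 between T and ES cells.

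Marker values beside Scd1 ran as follows. The 5 B cell markers were lower in T cells than in B cells by log2 differences from -4.85 to -2.62, the latter a bound for Pax5, beside -5.35 for Scd1. The T cell array exceeded the B cell array for all 10 macrophage markers, by 1.07 to 1.73. Of 6 fat cell markers, a list added after the Scd1 value was seen, 1 was above the detection level in B cells, which was Fabp4 at 123, and Adipoq was at 17.2.

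Scd2, the paralog of Scd1, did not share its pattern. The signals of Scd2 were 7905 in ES, 2890.3 in B and 2374 in T cells, 2.74-fold and 3.33-fold lower than in ES cells. Scd1 and Scd2 are near copies of each other, and whether probes of one bind transcripts of the other was not tested.

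Fads1 and Fads2 act together on polyunsaturated fatty acids, and both were brightest in ES cells. Fads2 had signals of 538 in ES, 53.8 in B and 40.7 in T cells, at least 5.67-fold lower in each lymphocyte array. Fads1 had 612, 110.8 and 325, 5.53-fold lower in B cells and 1.88-fold lower in T cells. A dimmer Fads1 probe set gave 0.0039 in B cells on the log2 scale, so the B cell difference of Fads1 rests on the brighter one.

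Among the elongases, Elovl6 stood apart from Elovl1 and Elovl5. Elovl6, which lengthens palmitate to stearate, had signals of 2979 in ES, 149.9 in B and 418 in T cells. It was 19.9-fold lower in B cells, with 188 of 12463 measured genes (1.51%, Elovl6 included) at least as far below ES cells, and 7.13-fold lower in T cells. The other Elovl6 probe sets were below the detection level in B cells, at signals of 73.4 and 47.8, so that their B cell log2 differences of -4.58 and -1.29 are bounds. In T cells they gave -2.84 and -1.07. Elovl1, which serves saturated chains of great length, had 1589.6, 2617.5 and 2399, and Elovl5, which serves polyunsaturated chains, had 3615, 3792 and 6776, where the small B cell difference turned negative (-0.28) with that scaling. Neither reached 2-fold in any comparison.

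The acyl-CoA synthetases, which activate fatty acids for use, differed in direction. Acsl5 had signals of 566 in ES, 3452 in B and 3571 in T cells, 6.10-fold and 6.31-fold higher, on its only probe set. Acsl3 had 715, 337 and 237, 2.12-fold and 3.02-fold lower by this probe set, while the next gave -0.02 on the log2 scale in T cells. Acsl4, which favours arachidonic acid, had 1102, 955.5 and 1974, highest in T cells by this probe set. The other Acsl4 probe sets gave log2 differences against ES cells of 0.20 and -0.02 in T cells, and -0.62 and -0.13 in B cells.

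Between the B and T cell arrays 30 of 34 measured genes lay within 2-fold, a share near that of all genes, of which 9492 of 11194 did. At 4-fold, 0 were higher in T cells (2.49% of 11194 genes) and 1, Scd1, was lower (1.85%). At 2-fold, 3 were higher (8.89%) and 1 lower (6.32%), with a median of 0.05 beside -0.05 over all genes. All 17 sterol enzymes lay within 2-fold, from -0.57 for Hsd17b7 to 0.82 for Msmo1. The 3 higher in T cells all act on fatty acids, namely Fads1 at 2.94-fold, Elovl6 at 2.79-fold and Acsl4 at 2.07-fold, and Fads1 turned to -0.51 by its other probe set. The other Acsl4 probe sets gave 0.82 and 0.11 on the log2 scale. The count of 3 fell to 1 with detection at the 65th percentile, with the median over probe sets and with the second brightest probe set.

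**Figure D4:**
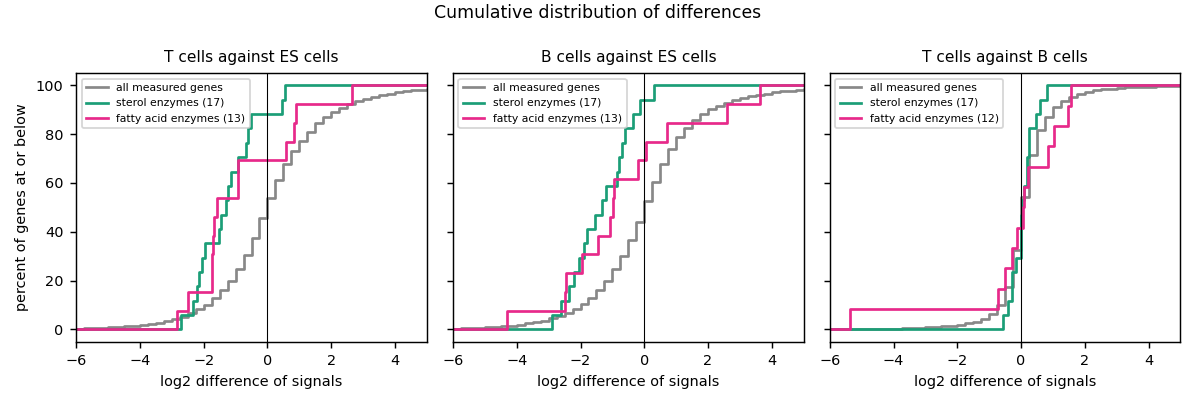
Cumulative percent of genes at or below each log2 difference, for the sterol enzymes, the fatty acid enzymes and all measured genes, in the 3 comparisons. Against ES cells both enzyme curves lie left of all genes through the middle of the range and meet or cross that curve at its ends, and they cross the curve of all genes for T cells against B cells, with medians of 0.04, 0.06 and -0.05.

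Other lipid genes were read from lists beside the 35. Among those of sterol uptake, storage and efflux, 4 of 9 in T cells (10.8% of all genes) and 3 of 9 in B cells (9.85%) lay at least 4-fold above ES cells, and 0 at least 4-fold below. The others lay within 4-fold, and in B cells 4 of 9 were below ES cells, among them Npc2, a lysosomal cholesterol carrier, at -0.84. The median was 1.56 in T cells, or 0.65 with the second brightest probe set. In B cells it was 1.70, which is a bound because the middle gene was below the detection level in ES cells, and 0.34 with detection at the 65th percentile. Mylip, which marks lipoprotein receptors for degradation, had signals of 450.3 in ES, 6437 in B and 3219 in T cells, 14.3-fold and 7.15-fold higher. Abca1 and Abcg1, cholesterol exporters, had 588, 4936 and 1731 and 302, 1701 and 2374. Lipa, the lysosomal lipase that frees cholesterol, had 306, 1088 and 2229.5. Abca1, Abcg1 and Lipa are known to be high in macrophages. Of the macrophage markers, 10 of 10 in T cells and 9 of 10 in B cells were above ES cells. Between T and B cells 10 of 10 macrophage markers and 7 of the 9 lipid genes were higher in T cells, beside 5115 of all 11194 genes. Abca1, at -1.51 on the log2 scale, and Mylip were lower in T cells. The part of macrophages in these values was not tested.

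Further genes of fatty acid supply fell on both sides, with counts near the share of all genes in most cases. In T cells 3 of 16 were at least 4-fold below ES cells (10.2% of all genes) and 2 above (10.8%), and in B cells 2 below (10.3%) and 1 above (9.85%). Me1, malic enzyme, a source of NADPH for synthesis, had signals of 958 in ES, 96.9 in B and 44.4 in T cells, 9.89-fold lower in B cells and, as a bound, at least 10.1-fold in T cells. Hacd1, a dehydratase of the elongation cycle, was at least 24.6-fold lower in both. Acss1, which activates acetate in mitochondria, had 152.9, 3421 and 1412, 22.4-fold and 9.23-fold higher. Acss2, its cytosolic counterpart, had 263.6, 294 and 1154, 4.38-fold higher in T cells and 1.12-fold in B cells.

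No gene reached 4-fold against ES cells in the lists of glycerolipid synthesis (10 measured), SREBP processing (7) and other sterol synthesis (4). The same held for fatty acid oxidation (11 measured in T cells and 12 in B cells). Past 4-fold lay 10.2% of all genes below and 10.8% above ES cells in T cells, and 10.3% and 9.85% in B cells. At those shares few genes of lists this short would pass. Cpt1a, the gate of fatty acid entry into mitochondria, had signals of 672 in ES, 1744 in B and 1461 in T cells, 2.59-fold and 2.17-fold higher. Hadh, a later oxidation enzyme, had 8810.1, 2603 and 3004, 3.38-fold and 2.93-fold lower. Rnf139, a ubiquitin ligase of the SREBP machinery, had 856.5, 3139 and 2295, 3.67-fold and 2.68-fold higher. Agpat4 in glycerolipid synthesis had 1931, 929.8 and 524.5, 2.08-fold and 3.68-fold lower.

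**Figure D5:**
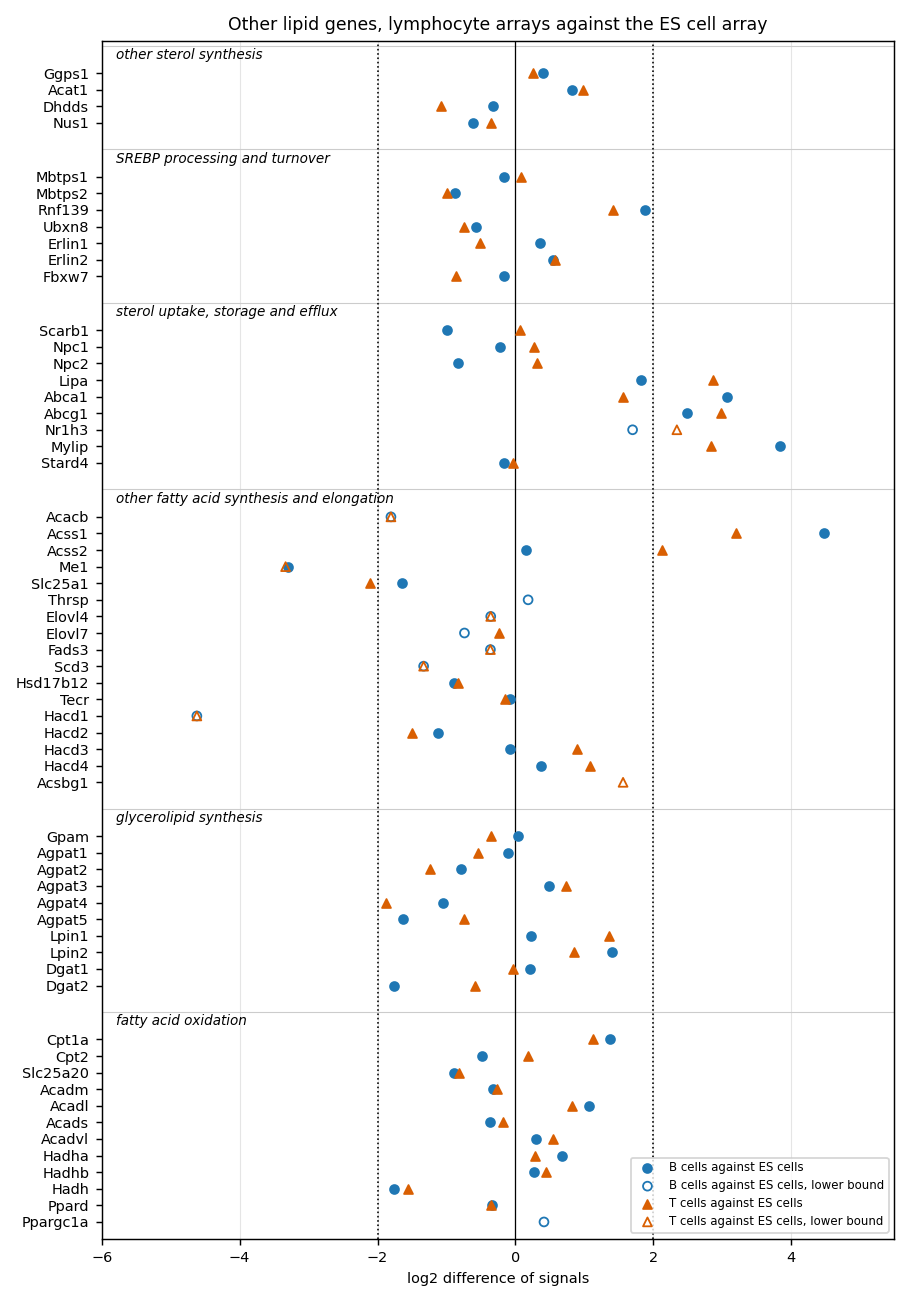
Log2 differences against the ES array for measured genes of 6 further lipid lists, B cells as circles and T cells as triangles, open where a bound, with 4-fold as dotted lines. Abca1, Abcg1, Lipa, Mylip and Acss1 lie to the right and Me1 and Hacd1 to the left.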

How the data were processed

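Messenger RNA of 3 populations was hybridized to 1 array each, after biotin labelling per the labels. The authors deposited a linear intensity for each of 45037 probe sets. Affymetrix Expression Console is named in the submitters' processing notes, with its algorithm, version and scaling target not given in the sources used here. Trimmed means (2% off each end) of the columns were 497 to 498, so a change in total mRNA per cell cannot be seen.

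Gene names came from GEO's platform annotation, with Entrez IDs looked up in a RefSeq table of GRCm38.p6: 34945 had 1 symbol, 932 several and 9160 none, and the last 2 kinds were left out. Of the 35 genes, 4 (Hmgcs1, Fdft1, Hsd17b7 and Elovl1) rest on a probe set whose name ends in x_at, the maker's mark for possible cross-hybridization, and 2 (Lss and Acsl3) on one ending in s_at, which can match several transcripts. Log2 differences, 2-fold and 4-fold counts and medians were computed in Python 3.11.15 with pandas 2.3.3 and numpy 2.4.6, after a check on simulated data. A gene was measured in a comparison where 1 of the 2 arrays exceeded the detection level. Precision is limited by the number of arrays.

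Any of the 35 genes could be named, and from each further list the 3 with the greatest difference in each comparison. The members and lists were chosen with earlier results of these data known. The alternatives tried were scaling to the 75th percentile, quantile normalization, 16 added to the signal in place of a floor, detection at the 65th percentile, the median over probe sets and the second brightest probe set.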

Additional observations from a re-analysis of the deposited data

Results flagged for a closer look

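Scd1 differed from ES cells in opposite directions in the 2 lymphocyte arrays, at least 2-fold each, higher in B cells and lower in T cells. The log2 difference between T cells and B cells was -5.35. With 1 array per population this difference was not tested.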

How the results depend on the processing

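No paired analysis was possible because each population has 1 array. Results were compared over 6 alternatives, and a difference was taken as unmoved where it shifted by less than the probe set SD of its comparison. The medians of the 35 genes kept their sign under all 6. They moved beyond that SD once, to -0.50 in T cells against ES cells with the second brightest probe set. Scaling to the 75th percentile raised the count past 4-fold below ES cells in the T cell array from 7 to 12. The same count over all genes rose from 1252 of 12325 to 1688 of 12543. Scaling also lowered the median of all genes from -0.11 to -0.42, and quantile normalization lowered that median to -0.26. Relative to all genes, the median of the 35 in T cells was -1.04 as deposited, -1.05 after quantile normalization and -1.12 after scaling. With that scaling genes on the higher side made up 38.6% rather than 51.5% of all genes past 4-fold between T and ES cells, and 37.4% rather than 48.8% between B and ES cells. With the second brightest probe set, 4 of 32 measured genes of the set lay past 4-fold below ES cells in the T cell array, beside 901 of 10716 genes. In the B cell array 5 lay below and 1 above, beside 932 and 1039 of 10798 genes. That setting turned Lss to 0.23 in T cells and Fads1 to 0.0039 in B cells, both relative to ES cells, and the cause was not tested. Quantile normalization and scaling moved 0 of 35 genes beyond the SD in either comparison with ES cells. Signal over background limits Fads2, whose fold is a bound, and Fads1 and Elovl6 in B cells and Mvk in T cells, at signals of 110.8, 149.9 and 140.8.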
